A study of Mus musculus with 4 samples.

Results

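The clustered histone genes were taken as every row of the deposited gene table whose symbol begins with Hist1h, Hist2h, Hist3h or Hist4h. This gave 68 of 23351 rows, of which 6 belong to linker histone H1, 18 to H2A, 19 to H2B, 12 to H3 and 13 to H4. On mm10, 54 of them lie on chromosome 13, 10 on chromosome 3, 3 on chromosome 11 and 1 on chromosome 6. Of these rows 3 name 2 genes each and 1 is a pseudogene.

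The RNA came from primary satellite cells, which are muscle stem cells, derived from a hindlimb muscle, the extensor digitorum longus, of mice of the C57BL/6 strain that were 6 to 8 weeks old. The study sets a Control group beside one labelled ERβ scKO, in which estrogen receptor β, encoded by Esr2, was knocked out; its title refers to young female mice. Each group had 2 libraries, 4 in all, made from polyadenylated RNA with a stranded mRNA kit, and the series text, which speaks of triplicates, calls the knockout cKO. The labels name neither the Cre driver nor the Control genotype, and do not say whether the libraries of a group came from separate animals, so p-values measure the spread between these libraries, which may be technical. Same-numbered Control and ERβ scKO libraries share a number in the labels. Its meaning is not given, and the main fit did not pair them. Values are in FPKM, a fragment count divided by transcript length and by sequencing depth, as computed by the authors for each library. The steps between low values put the depth of each library at between 2600000 fragments, for Control replicate 1, and 3000000. The targeted gene Esr2 gave 0.234 FPKM in Control replicate 1, 0.202 FPKM in Control replicate 2 and 0 in either knockout library. All 6 satellite cell and myoblast markers examined were measured, among them Des, the muscle intermediate filament protein, at 408 to 440 FPKM and Myod1, a myogenic transcription factor, at 315 to 385 FPKM. None of 3 endothelial and neither of 2 blood cell markers in the table reached a mean of 1 FPKM.

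Clustered histone genes supply the bulk of the histones that package newly replicated DNA, and are transcribed mainly in S phase. Their mRNAs normally carry no poly(A) tail: they end a few bases past a short stem-loop, which the stem-loop binding protein SLBP holds while the U7 small nuclear ribonucleoprotein directs the cut. Some of the same genes also have polyadenylated transcripts that run past the stem-loop to a downstream signal, a form described in differentiated and quiescent cells. A library built on oligo(dT) selection therefore reads the polyadenylated forms and little of the replication-dependent ones.

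The stem-loop was found by sequence in 46 of the 68 rows, in an annotated transcript of GENCODE M21. In the other rows the annotated transcript may end before the element, so they are not shown to lack it. The search asked for the 16 bases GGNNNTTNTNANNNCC whose first 6 and last 6 bases are complementary, on the transcript strand. It was present in 42 of 58725 other protein-coding transcripts, or 0.07%. After rows that share a locus were counted once, all H1, H2A, H2B and H3 elements had the same stem, GGCTCT paired with AGAGCC, in 4 of 4, 9 of 9, 10 of 10 and 9 of 9 loci. In H4 the stem was GGCCCT in 10 of 12 loci and GGTCCT in the other 2. The sequences below are those of the genes on which the results turn, with 2 genes that were listed at 0 for contrast; capitals mark the stem-loop and lower case the 5 bases on each side.
Hist1h1c (H1, chr13:23739512-23739527, + strand): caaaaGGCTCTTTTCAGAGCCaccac
Hist3h2a (H2A, chr11:58955172-58955187, + strand): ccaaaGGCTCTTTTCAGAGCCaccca
Hist2h3c1 (H3, chr3:96247327-96247342, + strand): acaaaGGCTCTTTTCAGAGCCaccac
Hist1h4i (H4, chr13:22040966-22040981, - strand): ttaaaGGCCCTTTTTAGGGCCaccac
Hist4h4 (H4, chr6:136803998-136804013, - strand): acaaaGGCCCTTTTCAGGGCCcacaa
Hist1h3g (H3, listed at 0, chr13:23535889-23535904, + strand): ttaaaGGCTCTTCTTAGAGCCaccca
Hist1h4b (H4, listed at 0, chr13:23757366-23757381, + strand): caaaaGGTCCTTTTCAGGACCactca
Hist1h1c, Hist3h2a and Hist2h3c1 carry the same 16 bases, although they encode different histones on 3 chromosomes. The annotated transcripts of Hist1h2bc and Hist2h2be hold no such element.

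Most clustered histone genes were not seen. Of 68 rows, 46 were listed at 0 in all 4 libraries, against 34.3% of all rows in the table. The zeros fell on 1 of 6 H1, 14 of 18 H2A, 13 of 19 H2B, 8 of 12 H3 and 10 of 13 H4 rows. Each library gave a value above 0 to between 12 and 16 members. An exact 0 in such a table can also be a failed estimate, and 27 of the 46 genes at 0 share over 50% of their 50-base stretches with another gene at a different position, against 3 of the 22 with a value. The median share was 59.9% at 0 and 25.5% above 0. The part of shared sequence in the zeros was not tested.

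A group mean above 1 FPKM was reached by 6 members in Control and by 6 in ERβ scKO, against 47.7% and 48.0% of all rows. By type these were 1 and 1 for H1, 2 and 1 for H2A, 1 and 2 for H2B, 1 and 1 for H3 and 1 and 1 for H4. Both groups shared 4 of them, Hist1h1c, Hist3h2a, Hist1h2bc and Hist1h4i, and these 4 were above 1 FPKM in every library. The other Control members, Hist1h2ab and Hist1h3c, rest on Control replicate 1 alone, without which the Control count was 4. The other ERβ scKO members, Hist2h2be and Hist2h3c1, were above 1 FPKM in both ERβ scKO libraries.

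**Figure D1:**
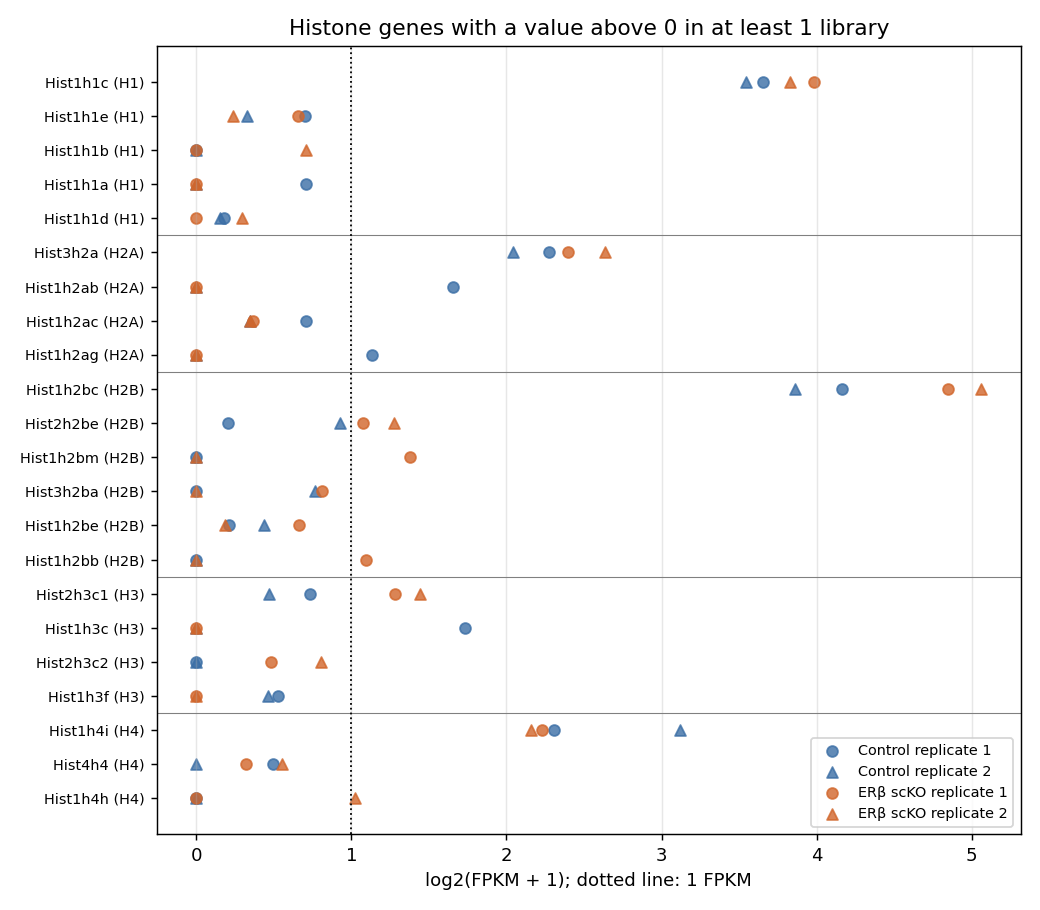
Level of each of the 22 histone genes with a value above 0, as log2(FPKM + 1), by library; colour gives the group, shape the replicate, and the dotted line 1 FPKM. Only Hist1h1c, Hist3h2a, Hist1h2bc and Hist1h4i lie to the right of the line in all 4 libraries, and most other genes are at 0 in some library.

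The depth behind the low values is small. For 17 of the 22 genes with a value, the 4 library values were whole multiples of 1 step that fitted the depth and the locus length. This gives the number of fragments behind each. Where only 1 library had a value any step divides it, so there the number rests on estimated depth and locus length alone. Hist1h2bc was not among the 17 genes. Of the 17 genes, 11 had at most 3 fragments over the 4 libraries together and 6 had 1. A single fragment was worth 0.113 FPKM for Hist1h1d and 1.49 FPKM for Hist1h2bm, and for 5 members 1 fragment alone exceeded 1 FPKM. A short gene thus passes 1 FPKM on fewer fragments than a long one.

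Linker histone H1, which binds DNA between nucleosomes, was represented almost entirely by Hist1h1c (H1.2, chr13:23738807-23740367). Hist1h1c read 11.6 and 10.7 FPKM in the Control libraries, against 14.8 and 13.2 FPKM in the ERβ scKO libraries. Both ERβ scKO libraries lay above both Control libraries, with a ratio of means of 1.26. The log2 ratio, on the log2(FPKM + 1) scale used for all ratios of single genes, was 0.31 (SE 0.146, limma adjusted p = 0.837). In the authors' deposited table its p was 0.270. It made up 92.7% of the summed H1 FPKM in Control and 94.6% in ERβ scKO. Hist1h1e (H1.4) was at 0.625 and 0.254 FPKM in Control, against 0.576 and 0.180 FPKM in ERβ scKO, so the groups overlapped. Its row covers the same locus as Hist1h2be, with overlapping exons, and reads of the pair may not be separable. Hist1h1b (H1.5) had a value in ERβ scKO replicate 2 only, 0.632 FPKM from 1 fragment, and Hist1h1a (H1.1) in Control replicate 1 only, at 0.631 FPKM. Hist1h1d (H1.3) had 1 and 1 fragments in Control and 0 and 2 in ERβ scKO.

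Among H2A genes, which encode a core subunit of the nucleosome, Hist3h2a (chr11:58954685-58956674) was the most abundant. Hist3h2a was at 3.83 and 3.13 FPKM in Control, against 4.27 and 5.22 FPKM in ERβ scKO. The ERβ scKO libraries lay above the Control libraries, with a log2 ratio of 0.36 (SE 0.204, limma adjusted p = 0.837). In the authors' deposited table its p was 0.269. GENCODE places 708 bases of the locus under a Trim17 transcript on the same strand and 138 bases under Gm44313 on the other; whether the authors' counting used strand is not given in the sources used here. Hist1h2ab was at 2.15 FPKM in Control replicate 1, from 2 fragments, and listed at 0 in the other libraries. Hist1h2ac was at 0.632 and 0.272 FPKM in Control, against 0.291 and 0.273 FPKM in ERβ scKO, from 4, 2, 2 and 2 fragments, so the groups overlapped.

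H2B, the partner of H2A in the nucleosome, included the most abundant member of all. Hist1h2bc (chr13:23684199-23692480, 2 exons) was at 17.0 and 13.5 FPKM in Control, against 27.8 and 32.4 FPKM in ERβ scKO. Both ERβ scKO libraries were well above both Control libraries, and the mean went from 15.2 ± 2.43 to 30.1 ± 3.22 FPKM (SD, n = 2 each), a ratio of 1.98. The log2 ratio was 0.94 (SE 0.162) with an unadjusted limma p of 0.00131, in a fit where 4.62% of 11201 genes had one under 0.05, and an adjusted p of 0.837. In the authors' deposited table the log2 ratio was 0.98, with p = 0.0061 and q = 0.998. Hist1h2bc was the only member with the authors' p under 0.05, a level that 3.25% of the 9426 rows they tested reached. They tested 4 members; another 61 carry their mark for no test and 3 that for low data. It passed neither correction for the number of genes. Of its 50-base stretches 30.6% also occur in other genes, most often in Hist1h2bg, which was listed at 0 in all libraries.

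Hist2h2be was next among H2B genes, at 0.150 and 0.905 FPKM in Control, against 1.10 and 1.42 FPKM in ERβ scKO. These values rest on 1, 7, 8 and 11 fragments. The groups did not overlap, but the lower ERβ scKO library differed from the higher Control library by 1 fragment. With a mean of 0.896 FPKM it did not enter the limma fit, and none of its 50-base stretches occurs in another gene. Hist1h2bm was at 1.59 FPKM in ERβ scKO replicate 1, from 1 fragment, and listed at 0 elsewhere. The remaining H2A and H2B genes with a value were Hist1h2ag and Hist1h2bb with 1 fragment each, Hist3h2ba with 1 fragment in each of 2 libraries, and Hist1h2be at 0.137 to 0.585 FPKM.

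H3, whose tail carries many of the best known histone modifications, had its highest mean over the 4 libraries in Hist2h3c1 (chr3:96246685-96248509), though not in Control alone. Hist2h3c1 was at 0.665 and 0.382 FPKM in Control, against 1.43 and 1.72 FPKM in ERβ scKO, from 3, 2, 7 and 9 fragments. Both ERβ scKO libraries lay above both Control libraries, with a ratio of means of 3.01 and a log2 ratio of 0.76 (SE 0.262). Its limma adjusted p was 0.837. It passed the filter of a mean of 1 FPKM only through its ERβ scKO values, so its unadjusted p is not read against that of other genes, and it was not tested by the authors. The gene shares 34.7% of its 50-base stretches with genes at other positions, mostly with its neighbour Hist2h3c2. That share leaves out Gm20634, under which GENCODE places all 1825 bases of the locus on the same strand. Reads of Hist2h3c1 and Gm20634 may not be separable. Hist2h3c2 was listed at 0 in both Control libraries and stood at 0.397 and 0.746 FPKM in ERβ scKO, from 1 and 2 fragments, under the limit of 3 fragments that a 0 allows. Hist1h3c was at 2.33 FPKM in Control replicate 1, from 2 fragments, and listed at 0 in the other libraries.

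H4, the partner of H3, was represented by Hist1h4i (chr13:22040816-22041352). Hist1h4i was at 3.95 and 7.69 FPKM in Control, against 3.68 and 3.46 FPKM in ERβ scKO, from 4, 9, 4 and 4 fragments. The ERβ scKO libraries lay below the Control libraries, but Control replicate 1 had the same number of fragments as each ERβ scKO library. The log2 ratio was -0.52 (SE 0.298, limma adjusted p = 0.837), and -0.11 without Control replicate 2. In the authors' deposited table its p was 0.366. Hist4h4 was at 0.407 FPKM and 0 in Control and at 0.249 and 0.468 FPKM in ERβ scKO, from 3, 0, 2 and 4 fragments, so the groups overlapped. Hist1h4h had a single fragment, in ERβ scKO replicate 2.

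Over the 5 members in the fit, 1 of each type, the median log2 ratio was 0.36, beside a median of -0.0037 over all 11201 genes tested. Limma called 4 genes, 0.0357% of those tested, and no member. Groups did not overlap, with ERβ scKO above, in 4 of the 5 members (Hist1h2bc, Hist2h3c1, Hist3h2a and Hist1h1c), against 18.3% of all genes tested, and with ERβ scKO below in 1 (Hist1h4i), also against 18.3%. Hist2h3c1 passed the filter through the group in which it is high, so these counts and the median describe the 5 genes and are no evidence of a shared direction. Over the 22 members with a value the median was 0.15, and 0.022 over the 17 with a mean under 1 FPKM. In these 22, ERβ scKO lay above in 6 and below in 2, against 17.6% and 15.5% of all rows with a value; the 3 beyond those already named were Hist2h2be, Hist2h3c2 and, below, Hist1h3f, which had 1 fragment in each Control library. The mean was higher in ERβ scKO for 13 of 22, against 51.2%, and lower for 9, against 48.8%.

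**Figure D2:**
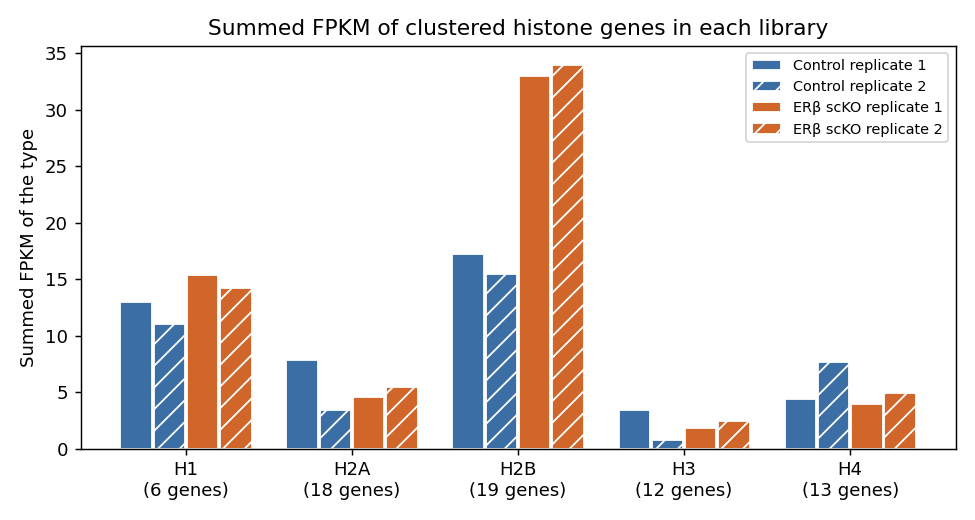
Summed FPKM of each histone type in each library, with the number of genes of the type under its name; each bar is 1 library. H2B stood at 17.3 and 15.5 in Control and 33.0 and 34.0 in ERβ scKO, while for H2A, H3 and H4 the values of the groups overlap.

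Sums over a type bring together reads divided among its own members, but do not recover reads that were left out. Because FPKM divides by length, a sum still depends on which member a fragment was given to. In H2B a single fragment was worth 1.49 FPKM for Hist1h2bm and 0.129 FPKM for Hist2h2be. Summed over all 68 members, the libraries stood at 45.8 and 38.4 FPKM in Control, against 58.7 and 61.1 FPKM in ERβ scKO, a mean of 42.1 ± 5.27 against 59.9 ± 1.71 (SD, n = 2 each). H2B accounted for most of that difference, with 16.4 ± 1.26 against 33.5 ± 0.673 FPKM, a ratio of 2.04. Hist1h2bc alone made up 93.1% and 90.0% of the H2B sum. The H1 sum was 12.0 ± 1.37 in Control and 14.8 ± 0.806 in ERβ scKO, and the groups did not overlap. For both H1 and H2B the direction was the same when any 1 library was left out.

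The other 3 sums gave no stable direction. The H2A libraries were at 7.80 and 3.40 FPKM in Control and 4.56 and 5.50 FPKM in ERβ scKO, a log2 ratio of -0.16 that became 0.56 without Control replicate 1. The H3 libraries were at 3.43 and 0.761 FPKM against 1.83 and 2.47 FPKM, a log2 ratio of 0.035 that became 1.50 without the same library. The H4 libraries were at 4.35 and 7.69 FPKM against 3.93 and 4.96 FPKM, a log2 ratio of -0.44 that became 0.030 without Control replicate 2. The member that led H3 also changed, from Hist1h3c with 55.5% of the sum in Control, on 2 fragments, to Hist2h3c1 with 73.4% in ERβ scKO. In these bulk samples fewer cells of a kind and less RNA per cell cannot be told apart.

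The genes that were seen differed from those that were not in where the quantified locus ends. Among 58 members with 1 exon and a locus of their own, the end of the locus was set against the end of the stem-loop. In 19 the locus ended 17 to 52 bases before the end of the stem-loop, and 2 of these, Hist1h2bb and Hist1h2bm, had a value, with a highest mean of 0.399 FPKM. In 7 it ended 5 to 48 bases past it, and 4 of these, Hist1h2ab, Hist1h2ag, Hist1h3c and Hist1h4h, had a value, none with a mean of 1 FPKM. In 13 it ended 107 to 2445 bases past it, and of these 10 had a value and 4 a mean of at least 1 FPKM. A further 19 had no stem-loop in the annotated transcript, and 3 of them, Hist1h1a, Hist1h1b and Hist2h2be, had a value. Some of these transcripts are short, such as 312 bases for Hist1h4k and 381 for Hist1h2bl, and may end before the element. The spliced Hist1h2bc, in which the stem-loop was not found either, stands outside this comparison.

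The 4 genes in question were Hist1h1c, which ran 840 bases past the stem-loop, Hist3h2a with 1487, Hist2h3c1 with 1167 and Hist1h4i with 150. A long stretch was not enough for a high level: Hist4h4 ran 2445 bases past, Hist1h1d 2206 and Hist1h2ac 2010, and each had a mean under 1 FPKM. Such loci are also longer, and length itself went with detection. Of members with a locus of up to 320 bases 8 of 8 were listed at 0, and of those with more than 320 and up to 420 bases 22 of 23. Of members with over 1000 bases 3 of 15 were at 0. Other rows of the table at these lengths were at 0 in 98.5% of 267, 78.9% of 19 and 29.6% of 21620. These lengths are spans of the locus with any introns, so the other rows are not matched to members in transcript length. With more than 420 and up to 560 bases 57.1% of members were at 0 against 78.7% of other rows, and with more than 560 and up to 1000 bases 62.5% against 94.1%, so at these lengths the share at 0 was lower among members. The position of the locus end and its length cannot be told apart here.

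**Figure D3:**
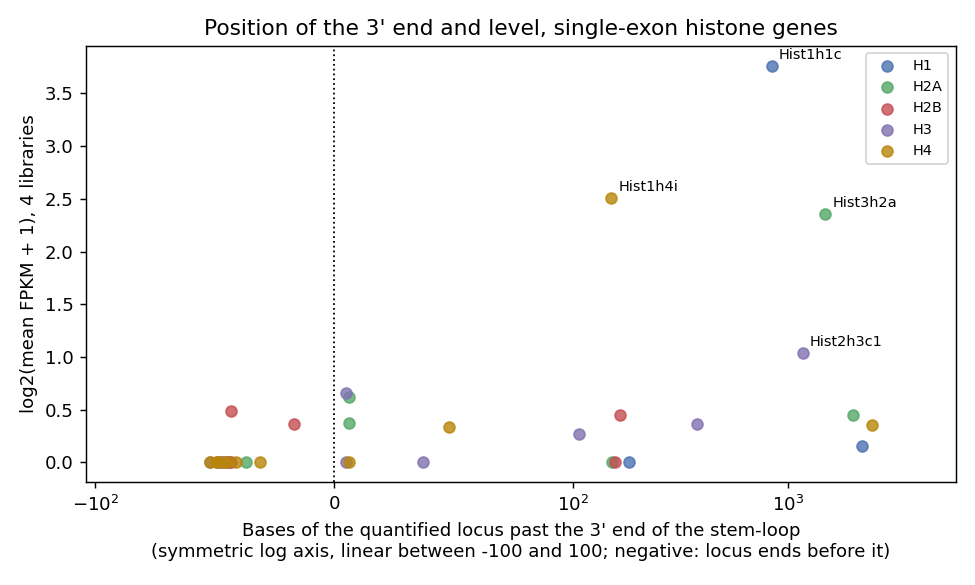
Mean level over the 4 libraries, as log2(mean FPKM + 1), against the number of bases by which the quantified locus runs past the end of the stem-loop, for the 39 single-exon genes with a stem-loop; points are genes, coloured by histone type. The 4 genes at a mean of 1 FPKM or more lie 150 to 1487 bases past it, and 17 of the 19 genes whose locus stops short of it were at 0.

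Promoter sequence was compared for the 57 members with an entry in the RefSeq promoter table (GRCm38.p6, 250 bases before to 50 after the gene start). Each motif was searched as exact letters on both strands. TATAAA, the core of the TATA box, was present in 61.4% of members and 14.16% of all 27025 promoters. CCAAT, bound by the factor NF-Y, was present in 84.21% of members and 37.92% of all. It was found in every H1, H2A, H2B and H3 promoter with an entry but in 3 of 12 H4 promoters. The octamer ATTTGCAT, bound by Oct1, was present in 22.81% of members and 1.75% of all. By type it was in 7 of 15 H2A and 6 of 14 H2B promoters and in none of the other types. For each gene the first window listed was counted. Hist1h2be has a further window, chr13:23585921-23586220, that holds the octamer, while its counted window does not. Windows of adjacent H2A and H2B genes can cover the same bases, as for Hist1h2ae and Hist1h2bg. The same match can then count for both genes, so these counts are not independent.

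Hist1h2ac and Hist1h2bc are transcribed away from each other, and 239 bases lie between their loci on chromosome 13. The window of Hist1h2ac therefore spans the stretch shared by this divergent pair, and it holds all 3 motifs at least once. Capitals mark each match to a motif, as spelled above or as its reverse complement.
Hist1h2ac (chr13:23683910-23684209, - strand): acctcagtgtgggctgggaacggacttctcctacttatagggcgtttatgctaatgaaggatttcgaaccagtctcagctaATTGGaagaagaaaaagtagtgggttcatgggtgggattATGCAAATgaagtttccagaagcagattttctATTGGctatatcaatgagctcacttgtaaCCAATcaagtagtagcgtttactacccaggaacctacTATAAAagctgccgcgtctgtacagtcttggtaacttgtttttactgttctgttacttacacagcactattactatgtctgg
From either side of this stretch the readings were unlike. Hist1h2bc had a log2 ratio of 0.94 at means of 15.2 and 30.1 FPKM. Hist1h2ac stood at 0.452 FPKM in Control and 0.282 FPKM in ERβ scKO, on 10 fragments in all.

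The genes that surround histone supply were read from the same libraries, and limma called none in any of the 4 lists. The genes listed as replication-independent histone genes, most of which have introns or polyadenylated mRNAs, differed widely in level. The most abundant of them, H2afz and H3f3a, were above every clustered gene. H2afz, encoding H2A.Z, was at 663 and 590 FPKM in Control, against 566 and 508 FPKM in ERβ scKO. H3f3a, encoding H3.3, was at 424 and 528 FPKM against 515 and 526 FPKM. Of 11 measured genes 2 had a higher and 9 a lower mean in ERβ scKO. Groups did not overlap in 5, all with ERβ scKO below, against 18.3% of all genes: H2afz, H2afy2, Cenpa, H2afv and H1fx, of which the last 4 are named after their values were seen. The median log2 ratio was -0.16, and -0.020 without Control replicate 1.

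Factors that form and degrade histone mRNA ends showed no common direction, with 5 of 13 higher, 8 lower and a median of -0.05. Slbp, which encodes the stem-loop binding protein, was at 38.1 and 41.3 FPKM in Control, against 35.1 and 38.8 FPKM in ERβ scKO, so the groups overlapped. Its log2 ratio was -0.10 (SE 0.119, limma adjusted p = 0.871). Cpsf3, the endonuclease that makes the cut, was at 44.5 and 41.8 FPKM against 35.8 and 37.9 FPKM, with no overlap and a log2 ratio of -0.22 (SE 0.112, limma adjusted p = 0.837). Groups did not overlap in 5 of the 13: Npat and Lsm10 were above and Cpsf3, Upf1 and Lsm11 below, against 18.3% of all genes each way, the genes other than Cpsf3 being named after their values were seen.

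Of 16 histone chaperone and chromatin assembly genes 3 had a higher and 13 a lower mean in ERβ scKO, against 49.1% and 50.9% of all genes tested, with a median log2 ratio of -0.11. Groups did not overlap with ERβ scKO above in 1, Atrx, named after its values were seen, and below in 7, against 18.3% each way. Hira, part of the complex that deposits H3.3, was at 18.4 and 19.4 FPKM in Control, against 14.2 and 13.1 FPKM in ERβ scKO. Its log2 ratio was -0.44 (SE 0.132, limma adjusted p = 0.837), and p in the authors' deposited table was 0.0355. The most abundant, Nap1l1, an H2A and H2B chaperone, was at 504 and 522 FPKM against 508 and 459 FPKM. Rbbp4, a subunit of chromatin assembly factor 1, was at 154 and 183 FPKM against 161 and 167 FPKM, and in both of these the groups overlapped.

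S phase genes, which mark the period when replication-dependent histone mRNA is made, lay lower in ERβ scKO. Of 24 genes 23 had a lower mean and 1, Ccne2, a higher mean, against 50.9% and 49.1% of all genes tested. In 17 the groups did not overlap with ERβ scKO below, against 18.3%, and the median log2 ratio was -0.29. Mcm2, a subunit of the replicative helicase, was at 48.6 and 37.5 FPKM in Control, against 31.0 and 26.7 FPKM in ERβ scKO, with p = 0.00555 in the authors' deposited table. Mcm5, of the same complex, was at 45.9 and 31.7 FPKM against 31.8 and 24.9 FPKM, overlapping, with p = 0.0323 in the authors' deposited table. Rrm2, which makes deoxyribonucleotides, was at 341 and 369 FPKM against 332 and 329 FPKM. Pcna, the replication clamp, was at 206 and 217 FPKM against 202 and 184 FPKM. The difference between the S phase list and the clustered genes was not tested.

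**Figure D4:**
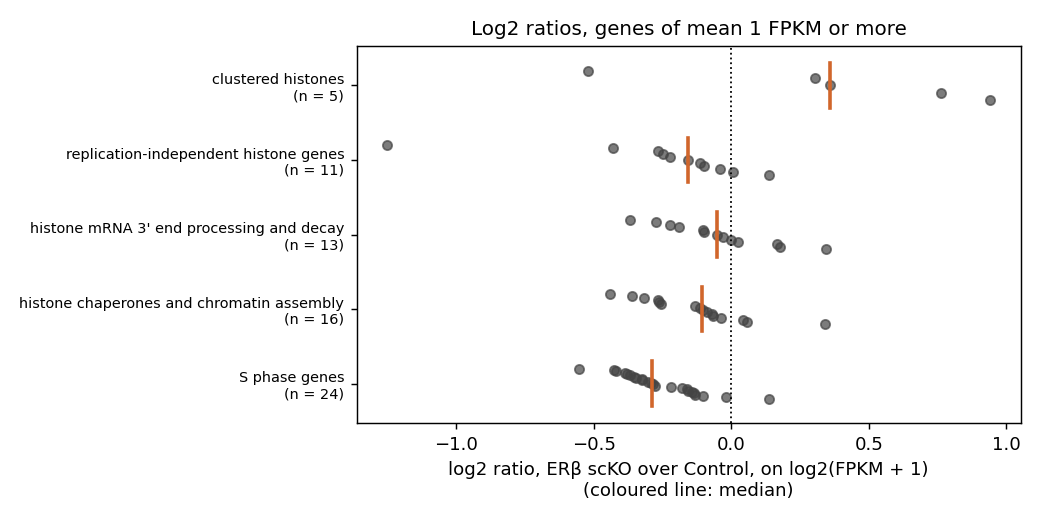
Log2 ratio between groups, positive where ERβ scKO is higher, on the log2(FPKM + 1) scale for each gene with a mean of at least 1 FPKM, in the clustered histone genes and 4 related lists; points are genes and the coloured line the median. The 5 clustered genes have a median of 0.36 and 1 gene below 0, and the 24 S phase genes a median of -0.29.

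Markers of RNA handling and of other cells were read beside these values. Malat1, a long noncoding RNA kept in the nucleus, was at 63.5 and 115 FPKM in Control, against 141 and 166 FPKM in ERβ scKO. Neat1, a long noncoding RNA linked to paraspeckles, was at 79.7 and 90.8 FPKM against 129 and 143 FPKM. These RNAs were higher in the same libraries as Hist1h2bc, and their part in its values was not tested. The fibroblast marker Col1a1, a fibrillar collagen chain, was at 18.7 FPKM in Control replicate 1 and at 0.909, 2.09 and 1.40 FPKM in Control replicate 2 and ERβ scKO replicates 1 and 2, with p = 5e-05 in the authors' deposited table. Pdgfra and Dcn, also fibroblast markers, were higher in replicate 1 than in replicate 2 in both groups. Pdgfra was at 3.17 and 0.446 FPKM in Control, against 2.64 and 0.149 FPKM in ERβ scKO. Dcn was at 1.96 and 0.584 FPKM against 2.36 and 0.195 FPKM. All 4 fibroblast markers were measured. Their summed level was 71.1 to 105 FPKM in Control and 63.1 to 70.5 FPKM in ERβ scKO. Col3a1 was the largest, at 61.4 to 81.0 FPKM. Control replicate 1 is also the library with the lone readings of Hist1h2ab and Hist1h3c, and the part of other cells in these was not tested.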

How the data were processed

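TopHat and Cufflinks, with the mm10 build, are the tools that the submitters' processing notes name; versions and annotation are not given in the sources used here. The FPKM values of the 4 libraries were used as the authors deposited them. The same deposited table has, for each gene, a log2 ratio, a test score, a p-value and a q-value from the authors' own test. The 68 members and the gene lists were chosen with earlier results of these data known.

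FPKM values are not counts, so limma 3.58.1 in R 4.3.3 was run on log2(FPKM + 1) with a variance trend, over the 11201 genes averaging 1 FPKM or more, at a Benjamini-Hochberg adjusted p of 0.05; it was tested on simulated data first. Named genes were the 3 most abundant members of each type, those with the authors' p under 0.05, the 3 largest ratios each way without overlap, and, of each list, the 2 most abundant and those with the authors' p under 0.05.

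Depth came from value steps of 106 genes longer than 3000 bases. Members' fragments were recovered where the 4 values fell within 0.05 fragments plus 1.2% of whole multiples. This covers counting error only. The length implied by step and depth also had to be 0.55 to 1.03 of the locus span, with a single solution. A 0 allows up to 3 fragments. Genes were located in GENCODE M21, on the same build: 65 matched by symbol and position and 3 by position only.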

Additional observations from a re-analysis of the deposited data

How the results depend on the processing

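The 5 members in the fit kept the sign of their log2 ratio, and none was called, in all alternatives that gave them a value: 0.79 to 1.09 for Hist1h2bc (lowest adjusted p 0.157), 0.23 to 0.38 for Hist1h1c, 0.20 to 0.48 for Hist3h2a, 0.25 to 1.46 for Hist2h3c1 and -0.93 to -0.11 for Hist1h4i. The median log2 ratio of members, 0.36, was 0.24 with a pseudocount of 5, 0.15 with no filter, 0.62 at a mean of at least 5 FPKM and 0.25 to 0.42 when 1 library was left out. Limma's 4 calls over all genes became 2 with no filter and 9 to 11 when 1 library was left out, and the authors' 0 calls at q under 0.05 became 8 at 0.10, with 3.25% of tested rows at an unadjusted p under 0.05. At 0.5 FPKM the ERβ scKO count of members rose from 6 to 10; leaving out 1 library gave 4 to 7 in Control and 7 to 8 in ERβ scKO.

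Without its highest member the log2 ratio of the sum was -0.12 for H1, -2.91 for H2A, 1.57 for H2B, -1.46 for H3 and 2.10 for H4. With 1 library left out it spanned 0.19 to 0.42 for H1, -0.63 to 0.56 for H2A, 0.96 to 1.11 for H2B, -0.68 to 1.50 for H3 and -0.79 to 0.030 for H4. Same-numbered Control and ERβ scKO libraries share a number in the labels, but are not stated to be pairs. The correlation of their deviations was 0.211, a single value because each group had 2 libraries. With the replicate number as a block limma made 6 calls and the median of members stayed 0.36. Depth limits all members under 1 FPKM.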
